A study of Homo sapiens and Mus musculus with 69 samples.

Results

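Voltage-gated sodium, calcium and potassium channel genes were followed across small cell lung cancer (SCLC) lines in which the Notch pathway was switched on. They were taken by symbol: SCN followed by digits and A or B, CACNA1, CACNA2D, CACNB, CACNG and KCN, leaving out 12 symbols that end in -AS1 or -IT1. The rule gave 139 of the 20516 rows of the table of human lines and, in mouse spelling, 131 of the 18501 rows of the KP1 table. The human set includes the inward rectifier (15 genes), two-pore (14) and calcium- or sodium-activated (12) potassium channels, which carry the KCN prefix, as well as 5 noncoding RNAs and KCNRG, a regulator of channel assembly. Of the 139, 100 reached a log2 level of 1 in at least 3 human libraries, and KCNQ1DN was listed at 0 in every one.

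Voltage-gated channels open when the membrane potential changes. Sodium channels fire the action potential, calcium channels turn it into calcium entry, which drives exocytosis and contraction, and potassium channels end it and set the resting potential. Each pore is an alpha subunit, while auxiliary subunits (SCN beta; calcium alpha2delta, beta and gamma; KCNAB, KCNE and KCNIP) set its trafficking and gating. SCLC cells are neuroendocrine, and many are electrically excitable. REST, a transcriptional repressor that silences neuronal genes outside the nervous system, binds an element found in many channel genes.

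RNA-seq had been run on 69 libraries in 23 groups of 3. H82 and H524 are lines with high NEUROD1, H69 and COR-L88 are further lines, and KP1 is a mouse SCLC line lacking Rb1 and Trp53. All human N1ICD groups (labelled NOTCH1) carry a lentivirus with the intracellular domain of NOTCH1 under a doxycycline promoter, and were grown without doxycycline (no dox) or with 1 µg/mL (dox) for at least 28 days. H82, H524 and H69 also have a parental group. H82 N1ICD cells were further edited by CRISPR to lose REST (REST KO) or STING (STING KO), each with and without doxycycline, and COR-L88 cells to lose STING. The study shows single-cell KO clones for REST in H82 and for STING in H82 and COR-L88. The sources used here do not say which clones, or whether a pool, were sequenced. In KO against intact differences the edit and a clone therefore cannot be told apart. A second H524 line carries doxycycline-inducible REST in place of N1ICD. Per the study's methods, the cells taken after doxycycline were the adherent ones, which only trypsin frees from the plate. How no dox cells were taken is not said there, so induction and a choice of adherent cells cannot be told apart. COR-L88 cells received DMSO, 100 nM of TAS1440, an inhibitor of the demethylase LSD1, or TAS1440 with 2 µM of a gamma-secretase inhibitor (GSI), which blocks release of the Notch intracellular domain; STING KO COR-L88 cells received DMSO or TAS1440. KP1 cells received DMSO, TAS1440 or TAS1440 with 10 µM of DBZ, a GSI other than the one used in COR-L88. All COR-L88 and KP1 groups were treated for at least 28 days. The sources used here do not say whether replicate libraries come from separate cultures, so p-values measure the spread between libraries, which may be technical.

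Levels are the deposited log2(RPKM + 1) values. A member was called higher or lower when the difference on this scale was at least 1 with an adjusted p under 0.05 in a limma fit over all genes, and "rose", "fell" and "changed" are used only of such calls. The pseudocount of 1 understates the change of low genes. Relative library size ran from 0.698 to 1.522 times the median in the human table and from 0.871 to 1.074 in KP1. The spacing of low values gave the worth of 1 read for 124 of the 139 human members. It ran from 0.000616 to 4.34 RPKM, so levels are compared between groups and never between genes, and estimated reads are given where they matter.

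The targeted genes came first. NOTCH1 RNA was 4.26 to 5.56 in H82 dox libraries against 0.88 to 1.45 without doxycycline, 7.58 to 8.31 against 0.79 to 1.52 in H524 and 7.93 to 8.07 against 0.38 to 0.39 in H69. In H82 dox it was higher in REST KO (8.75, 9.15 and 10.74) and in STING KO (5.97, 7.41 and 7.48). REST RNA did not vanish in REST KO: it was 4.95, 4.95 and 5.89 with doxycycline against 6.48, 6.13 and 6.33 in intact cells, which does not show whether protein was lost. The STING gene, listed as TMEM173, was at 1.27, 1.53 and 2.04 in H82 STING KO dox and at 1.07, 1.17 and 1.10 in intact dox. The study shows immunoblots of single-cell REST KO and STING KO clones, while the data used here hold RNA only. Markers also moved: the mean log2 level of 8 neuroendocrine genes was 6.00 without and 2.21 with doxycycline in H82, 6.91 and 5.29 in H524, and 6.50 and 1.59 in H69. In COR-L88 it was 6.32 with DMSO, 3.27 with TAS1440 and 4.42 with the GSI added. All 8 were at a mean of 1 or more with DMSO in COR-L88, 7 of 8 in no dox cells of each N1ICD line, and 3 of 8 in H82 and H69 dox cells, where 1 and 2 were at 0. The mean of 8 non-neuroendocrine genes (VIM, YAP1 and others) went from 2.23 to 5.23 in H82, 0.84 to 4.62 in H524, 1.28 to 6.30 in H69 and 0.83 to 4.72 in COR-L88. The part of this shift in the channel results was not tested, and in bulk RNA fewer cells of a type and less RNA per cell cannot be told apart.

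The H69 no dox libraries stood apart from the parental line. NEUROD1, the factor that marks the class of H82 and H524, was at 5.03, 4.77 and 3.32 in parental H69 and at 10.61, 8.88 and 8.69 in no dox cells. Between the same groups, 4 of 72 members tested were higher and 5 lower in no dox than in parental cells, against 3.02% and 2.25% of all genes. The lower ones included CACNA1A, KCNA6, KCNQ5 and KCNS3, and parental values are given below where they bear on an H69 result.

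Untreated lines had very different channels. Among parental H82, H524 and H69 and COR-L88 with DMSO, 71 of 76 members tested differed between lines, where 75.1% of all genes tested did. The highest mean was in H69 for 29 of them, in H524 for 23, in COR-L88 for 10 and in H82 for 9. CACNA1A, the pore of the P/Q-type calcium channel of presynaptic terminals, was at 9.46 to 9.59 in H69, 8.65 to 9.79 in H524 and 10.43 to 10.88 in COR-L88, but at 0.65, 0 and 0.32 in H82, where it had at most 2 reads. SCN3A, an embryonic brain sodium channel, was at 14.31 to 14.76 in COR-L88, 9.47 to 10.59 in H524, 6.27 to 8.30 in H82 and 0, 0 and 2.43 in H69. KCNJ8, the pore of a vascular ATP-sensitive potassium channel, showed another order, at 6.87 to 7.19 in H82, 5.66 to 6.15 in H524, 0 to 1.15 in H69 and 0.84 to 1.27 in COR-L88, and the last pair overlapped. KCNC1, a fast delayed rectifier of rapidly firing neurons, was high in all 4 lines, between 6.79 and 9.61. COR-L88 had a vehicle and the other lines none, so vehicle and line cannot be told apart.

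N1ICD changed many channels in each line. In H82, 13 of 70 tested members rose and 17 fell, while 14.7% of all genes tested rose and 12.4% fell. In H524, 15 of 81 rose and 17 fell (11.4% and 7.19% of all genes). In H69, 15 of 72 rose and 38 fell, against 21.4% and 20.4% of all genes, and the median difference was -1.10 over the members tested and 0.08 over all genes. The carrier lines also differed from parental cells before induction. In H82 no dox cells, 8 members were higher and 3 lower (3.75% and 2.66% of all genes). In the H524 N1ICD line, 3 were higher and 19 lower (4.94% and 7.16%). In the H524 REST line limma called none (0.022% and 0.242%). There 9 members passed an unadjusted p under 0.05, and the share of all genes that did is not given here. Of 48 members tested in all 3 lines, 4 rose in each (KCNA5, KCNE4, KCNMB1 and KCNS3) and 3 fell in each (CACNA2D1, KCNH6 and KCNJ11), while 4.11% and 2.00% of the 12078 genes tested in all 3 did.

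The 4 shared risers were 1 pore and 3 genes that modify pores. KCNA5, the atrial delayed rectifier, was listed at 0 in the 3 H82 no dox libraries and at 6.67, 6.50 and 7.76 with doxycycline. In reads this was 0 against 587 to 1475, at least 246-fold higher when the floor is set at 3 reads per library (adjusted p = 1.25e-09). H524 went from 0.50, 1.86 and 0.38 to 4.00, 3.47 and 4.77 (difference 3.17 ± 0.40, SE; adjusted p = 3.48e-05). H69 started higher, at 3.47, 3.11 and 3.42, and reached 8.71, 8.67 and 8.76 (5.38 ± 0.16; adjusted p = 7.06e-09). The groups overlapped in none of the 3 lines.

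KCNE4, an inhibitory auxiliary subunit of delayed rectifiers, went from 0.02, 0.09 and 0.02 to 3.38, 3.75 and 4.14 in H82. In H524 it went from 0.08, 0.14 and 0 to 5.81, 6.17 and 5.91, that is from at most 6 reads to 3128 to 5081. In H69 it was listed at 0 in the 3 no dox libraries and at 5.14, 5.12 and 5.14 with doxycycline, at least 509-fold higher by the same floor. No parental library of the 3 lines was above 0.27. KCNMB1, the smooth muscle beta subunit of the large-conductance calcium-activated potassium channel, was at 2.25, 2.82 and 2.73 in H82, 2.34, 2.53 and 3.16 in H524 and 5.52, 5.45 and 5.37 in H69 with doxycycline, and at 0.67 or below in all 9 no dox libraries. It lies within KCNIP1 on the opposite strand, and whether counting used strand is not given; KCNIP1 itself was at 0 reads in the H69 dox libraries and at 48 to 71 without. KCNS3, a silent subunit that modifies other delayed rectifiers, rose less, by 1.40 in H82, 1.20 in H524 and 2.10 in H69. Its H524 groups overlapped (2.12, 3.87 and 2.85 against 3.78, 4.31 and 4.35), and the call was lost without library 22, 24, 26 or 27 (0.79 to 1.15) and with only the groups compared. In H69 the dox cells, at 3.48 to 3.67, were far from the no dox cells, at 1.33 to 1.62, but close to the parental ones, at 3.06 to 3.18.

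**Figure D1:**
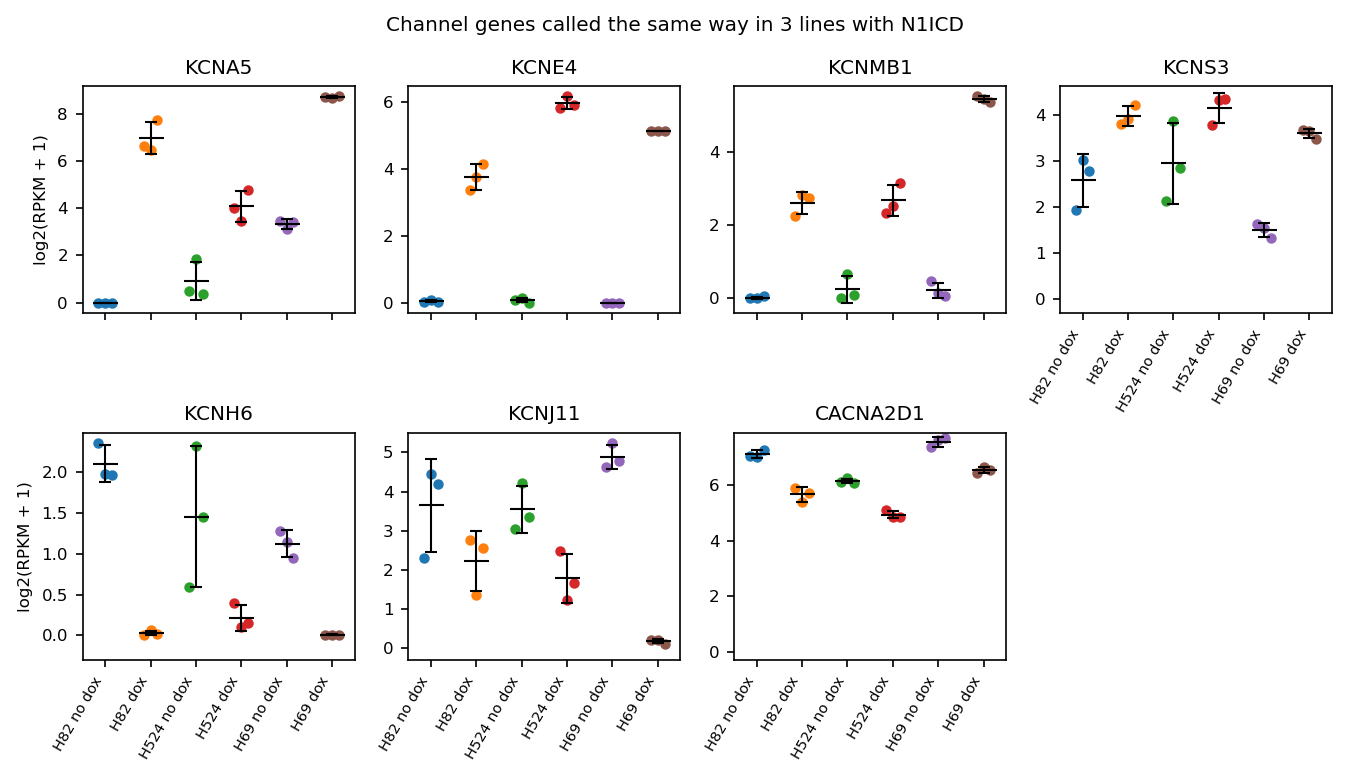
Log2(RPKM + 1) of the 7 channel genes that changed the same way with N1ICD in H82, H524 and H69, for no dox and dox libraries; points are libraries, and bars the mean and SD of 3. KCNA5, KCNE4 and KCNMB1 go from 1.86 or below to between 2.25 and 8.76, except that KCNA5 in H69 starts at 3.11 to 3.47.

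Of the 3 shared fallers, CACNA2D1, the alpha2delta subunit that brings high-voltage calcium channels to the surface, fell by 1.45 in H82 (7.05, 7.03 and 7.27 to 5.90, 5.38 and 5.71), 1.21 in H524 and 1.01 in H69, with no overlap. KCNH6, an ERG-type potassium channel of neurons and endocrine cells, fell to 0.01, 0.06 and 0.02 in H82 from 2.36, 1.98 and 1.96, that is from 387 to 594 reads to 1 to 7. In H69 it fell to at most 1 read from 100 to 159. KCNJ11, the pore of the ATP-sensitive potassium channel of the beta cell, fell furthest in H69, from 4.63, 5.24 and 4.78 to 0.21, 0.21 and 0.11 (-4.71 ± 0.14; adjusted p = 9.35e-09), and in H82 its groups overlapped (2.29, 4.46 and 4.19 against 2.76, 1.36 and 2.57) and the call was lost without library 5, 6 or 8 (-1.14 to -0.98) and with only the groups compared.

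Other channels rose in 1 or 2 of the lines. KCND3, a transient outward channel, rose in H82 (2.40), and KCNN3, a small-conductance calcium-activated channel, rose in H524, from 30 to 447 reads to 2135 to 5674, and in H69, from 10 to 43 reads to 677 to 721. KCNE3, an auxiliary subunit of epithelial channels, went from 0, 1.97 and 0 to 6.05, 5.71 and 6.40 in H524, on 42 to 83 reads. Among fallers in H82 was KCNC1, which went from 7.14, 6.68 and 6.85 to 2.64, 1.53 and 3.32 (-4.39 ± 0.34; adjusted p = 7.11e-09). In H524 the photoreceptor calcium channel CACNA1F fell by 3.60, from 6.04, 8.16 and 6.46 to 4.29, 2.85 and 2.72.

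The falls in H69 took in most channel families. All 5 high-voltage calcium pores tested fell: CACNA1A, CACNA1B (N-type), CACNA1C and CACNA1D (L-type) and CACNA1E (R-type). CACNA1A went from 8.09, 8.46 and 8.48 to 1.55, 1.94 and 1.75 (-6.60 ± 0.13; adjusted p = 6.62e-10), that is from 649 to 829 reads to 4 to 6. CACNA1D, the L-type channel of neuroendocrine cells, went from 7.33, 6.99 and 7.23 to 0 in each library, from 251 to 377 reads to none. CACNA1E fell only to 2.72, 2.58 and 2.35, from 5.59, 6.14 and 5.86. Parental cells were at 6.59 to 6.90 for CACNA1D and 5.34 to 5.40 for CACNA1E, so their dox cells were below both controls. The gamma subunit gene CACNG4 fell alongside, from 8.48, 8.39 and 8.55 to 1.08, 1.94 and 1.85.

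Of 6 sodium alpha genes tested in H69, 3 fell and 2 rose. SCN1A, SCN8A and SCN9A, channels of central and sensory neurons, fell; SCN1A went from 758 to 903 reads to 0 and SCN9A from 1035 to 1382 reads to at most 1. SCN2A rose, from 0.43, 0 and 0 to 1.37, 1.45 and 1.58, on 35 to 45 reads. SCN3A rose from 6.75, 0 and 0 to 7.21, 7.23 and 6.54, but 1 read of it was worth 4.34 RPKM, the groups overlapped in 1 library and the call was lost without library 50, 51, 52, 53 or 54 (3.62 to 4.97 on the log2 scale); the 3 parental values were 0, 0 and 2.43. SCN2A and SCN3A overlap at their ends on opposite strands.

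Of 23 voltage-gated potassium alpha genes tested in H69, 15 fell and 5 rose. KCNC1 went from 888 to 910 reads to 2 to 9 (9.30, 9.56 and 9.38 to 1.40, 3.04 and 1.77). KCNQ3, a subunit of the M-current that limits repetitive firing, fell by 3.29 on the log2 scale, from 1360 to 1898 reads to at most 1. Of other potassium families, 3 of 5 inward rectifiers, 2 of 7 two-pore genes and 4 of 8 calcium- or sodium-activated genes fell, among them KCNJ6, a target of G proteins in neurons, by 3.80 on the log2 scale, and KCNMB2, a beta subunit of the large-conductance channel, from 881 to 1834 reads to 0. The risers besides the shared ones included KCNJ8, from 3.23, 2.51 and 2.72 to 8.38, 8.36 and 8.37 (5.55 ± 0.30; adjusted p = 2.9e-07), and the acid-sensitive two-pore channel KCNK5 (3.58). No dox H69 cells had already moved towards dox for these: KCNJ8 rose over parental by 2.09 and KCNK5 by 1.26.

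Some channels moved in opposite directions in different lines. CACNA1A rose in H82, from 0 reads in each no dox library to 51 to 129 (3.94, 4.31 and 5.14), and fell in H69. H524, at 3.61, 6.93 and 6.35 without and 6.22, 5.88 and 6.37 with doxycycline, was not called, though its no dox cells were already lower than parental ones by 3.46 ± 0.61 (adjusted p = 0.00157). CACNA1E and CACNG4 also rose in H82 and fell in H69, and CACNG4 fell in H524 as well, though its H524 groups overlapped (2.74, 5.94 and 5.58 against 2.56, 2.85 and 2.82) and the call was lost without library 23, 24 or 25 (-1.92 to -1.42) and with only the groups compared. KCNQ5, an M-current subunit, fell in H82 (5.49, 5.51 and 5.39 to 3.53, 2.73 and 2.96) and in H524 and rose in H69 (2.50, 0 and 1.02 to 4.22, 4.40 and 4.52), where parental cells, at 4.07 to 4.28, overlapped the dox cells. KCNE2 rose in H82 and fell in H69 on at most 6 reads.

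Tests of the difference between responses used the 100 members that passed in the 3 lines together. The response of H69 differed from that of H82 for 50 members, 15 more positive and 35 more negative (22.3% and 21.6% of all genes), and from that of H524 for 60, 20 and 40 (18.1% and 19.3%). H524 and H82 differed for 34, 19 and 15 (9.97% and 9.42%). CACNA1A gave the most negative difference, -11.06 ± 0.66 between H69 and H82 (adjusted p = 5.35e-16). Lines, their baselines and the level of N1ICD RNA cannot be told apart here.

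**Figure D2:**
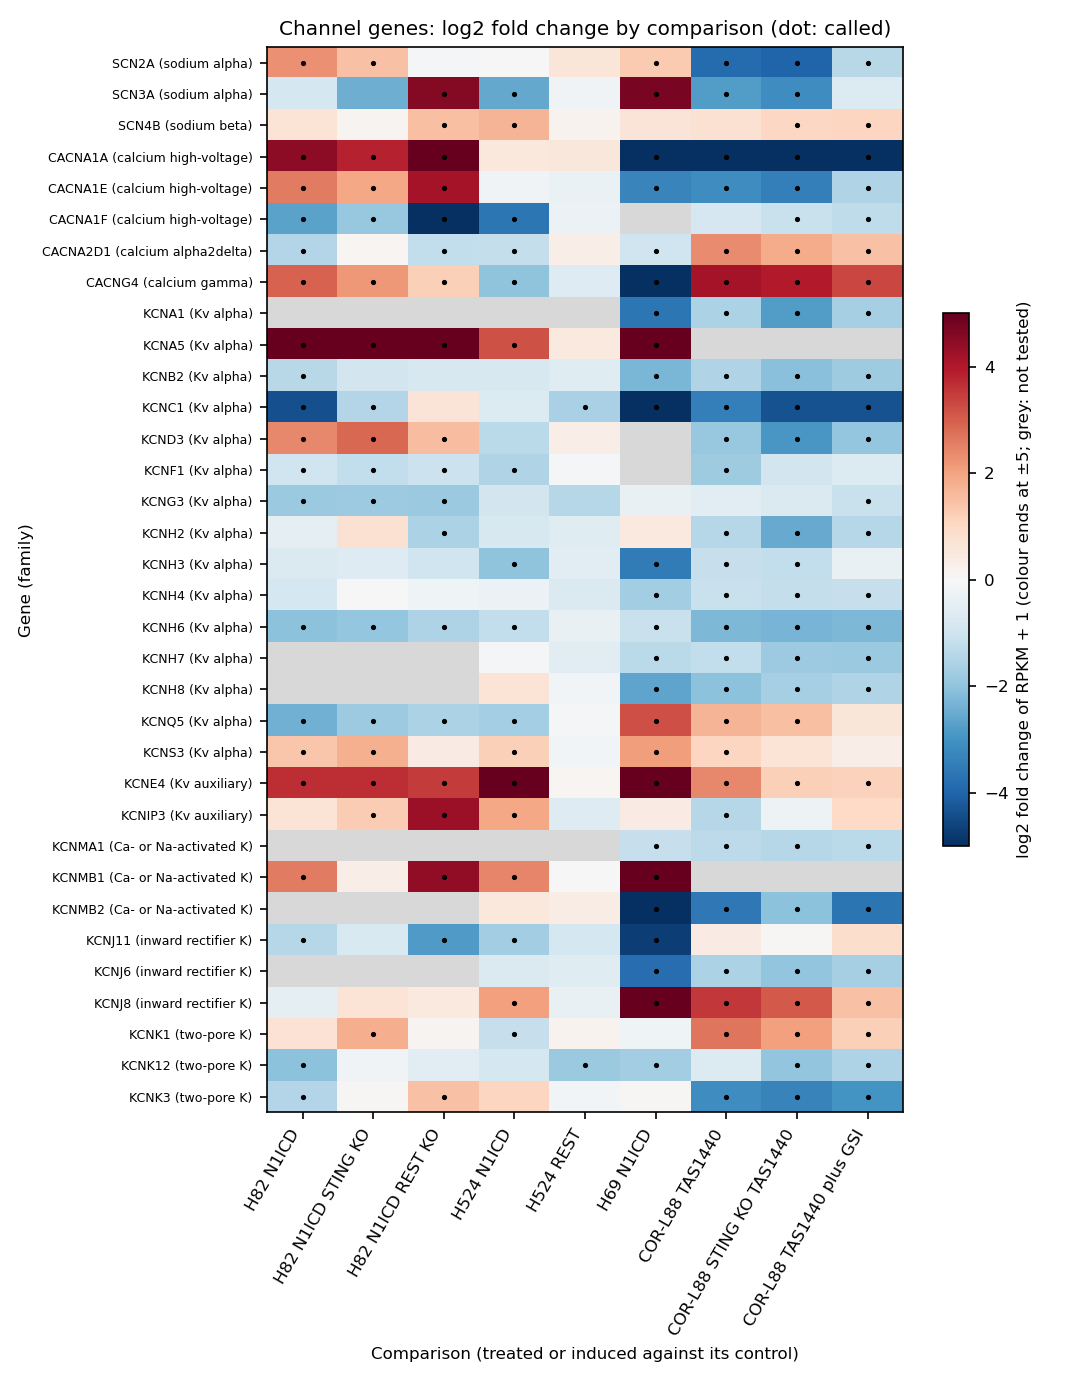
Log2 difference (colour) of 34 of the channel genes called in at least 4 of 9 comparisons, one column per comparison and one row per gene; grey marks genes not tested. Dots mark calls, and the colour ends at a difference of 5 either way. KCNE4 is called higher in all 5 N1ICD columns, and CACNA1A is higher in the 3 H82 columns and lower in the H69 and COR-L88 columns.

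REST by itself changed few channels. In H524 cells with inducible REST, REST RNA was 6.87, 10.72 and 9.43 with doxycycline and 4.90 to 5.05 without, and of 81 members tested 3 fell and 0 rose, while 0.586% of all genes fell and 1.28% rose. The 3 that fell were 3.7% of the members tested. At an unadjusted p under 0.05 in limma, 19 members passed. The share of all genes that did is not given here, so that count is not read as a channel result. KCNC1 went from 9.66, 9.69 and 9.65 to 8.52, 7.61 and 8.00 (-1.62 ± 0.24; adjusted p = 0.00268), and KCNK12, a silent two-pore subunit, from 3.33, 3.48 and 2.69 to 1.51, 1.21 and 1.27 (-1.84 ± 0.22; adjusted p = 0.000731). The groups overlapped for neither gene. KCNE4 and KCNA5 were at 0.02 to 0.23 and 0.60 to 1.03 with REST, and neither was called. The N1ICD response exceeded the REST response for 12 members and fell short of it for 14 (9.88% and 5.68% of all genes). With doxycycline, 18 members were higher and 28 lower in N1ICD than in REST cells (12.3% and 11.5%). For KCNE4 the difference between the responses was 5.79 ± 0.17 (adjusted p = 4.83e-11).

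REST KO and intact H82 cells differed for more channels with N1ICD on than off. Without doxycycline, 5 of 70 members were higher and 3 lower in REST KO than in intact cells (3.39% and 2.85% of all genes). With doxycycline, 19 were higher and 8 lower (9.44% and 8.21%), and within REST KO cells doxycycline raised 26 and lowered 14 (16.2% and 13.7%). The doxycycline response differed from the intact one for 25, 17 more positive and 8 more negative (7.46% and 5.46%). The median difference with doxycycline was 0.35 over the members tested and -0.06 over all genes. NOTCH1 RNA was also higher in these REST KO cells, as given above, and its part was not tested. The neuroendocrine mean was 4.02 in REST KO dox and 2.21 in intact dox cells.

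KCNC1 was among those that differed. In intact H82 it fell with doxycycline from 7.14, 6.68 and 6.85 to 2.64, 1.53 and 3.32, and in REST KO it was at 7.80, 8.03 and 7.47 without and 8.14, 8.34 and 8.71 with doxycycline. The interaction was 5.03 ± 0.48 (adjusted p = 9.66e-07), and the dox groups, at 4 to 20 and 460 to 693 reads, did not overlap. KCNK3, an acid-sensitive leak channel, fell in intact cells to 0.57, 0.40 and 0.92 and rose in REST KO to 4.12, 4.52 and 4.02 (interaction 2.93 ± 0.28; adjusted p = 1.18e-06). KCNK12 fell to 0.13, 0.13 and 0.27 in intact cells and stayed at 2.78, 3.00 and 2.77 in REST KO. KCNH4, a brain ELK-type channel, was at 0.02, 0.12 and 0.10 in intact dox and 1.99, 1.78 and 1.82 in REST KO dox cells; it was also higher in REST KO without doxycycline, at 2.13, 2.17 and 1.91 against 0.69, 0.99 and 1.18.

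Several channels were highest in REST KO dox cells among the 7 H82 groups. CACNG7, a neuronal gamma subunit that also regulates glutamate receptors, was at 6.96, 6.72 and 7.09 there, on 131 to 163 reads, against 2 to 3 reads in intact dox cells and at most 2.01 in any other H82 library. KCNN4 and KCNG1 were at 2.75 to 3.52 and 2.31 to 2.96 there, and neither exceeded 1.08 in another H82 library. KCNIP3, a calcium sensor that binds transient outward channels and also acts as a repressor, reached 6.88, 7.43 and 6.58 from 2.79, 2.66 and 2.57, while intact cells reached 3.52, 3.43 and 3.55. Those lower in REST KO dox than in intact dox cells included CACNG4 (0.58, 0.84 and 2.15 against 5.07, 4.28 and 4.41), SCN2A (0.74, 0.85 and 0.22 against 2.56, 2.69 and 3.07) and the strong inward rectifier KCNJ2 (0.28, 0.50 and 0.13 against 2.45, 2.37 and 2.99). KCNA5 and KCNMB1, from the shared risers, were at 7.96 to 9.02 and 4.26 to 4.53 in REST KO dox cells; KCNMB1 was called higher than in intact cells, by 1.82, and KCNS3 lower.

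**Figure D3:**
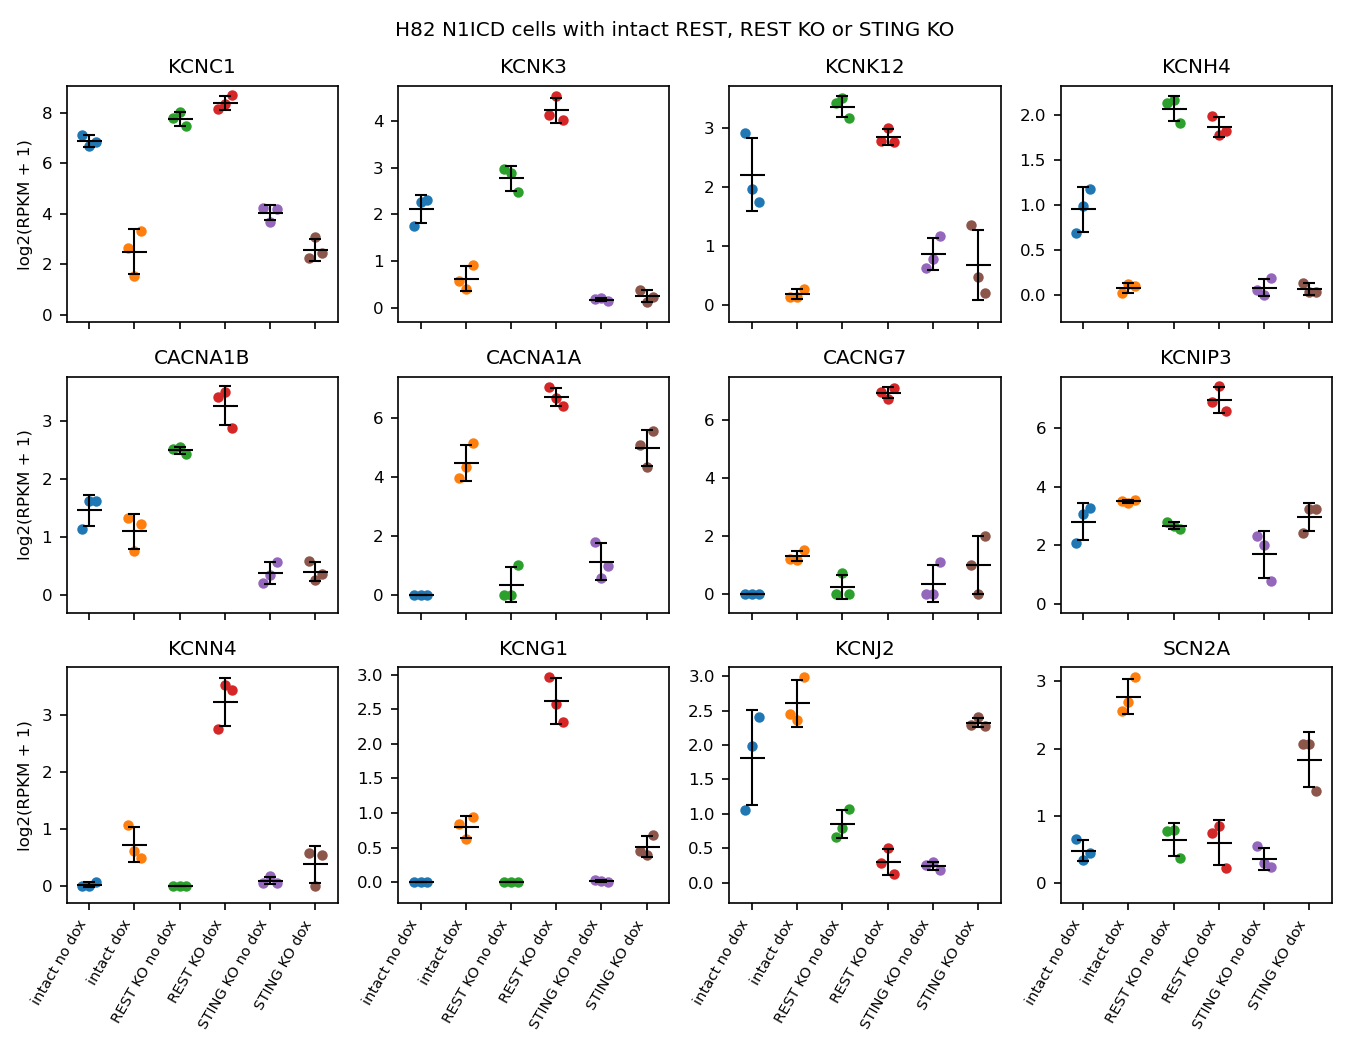
Log2(RPKM + 1) of channel genes in H82 N1ICD cells with intact REST, REST KO or STING KO, without and with doxycycline; points are libraries, and bars the mean and SD of 3. KCNC1, KCNK3, KCNK12 and KCNH4 are low in intact dox cells and high in REST KO dox cells, and CACNG7 reaches 6.72 to 7.09 in REST KO dox cells and at most 2.01 in the other groups.

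The sequence bound by REST was looked for in the GRCh37 (hg19) genome, since these data bear on it. It was written as CAGCACC, 2 bases of any kind and GGACAG, on either strand. Of 17226 protein-coding genes of the table with a position, 1.17% held it within 10000 bases of the gene start and 2.63% within the gene or 5000 bases upstream; of 138 positioned members, 5.80% and 13.8% did. The longer window grows with the gene, and per Mb of it there were 0.384 sites over all genes and 0.939 over members. Near the start, 4 of the 19 members higher in REST KO dox cells held it (21.1%), 0 of the 8 lower and 3 of the 43 not called (6.98%). Among these 4, KCNN4 was low in every other H82 group, as given above, so a lower call was hardly possible for it. The shares of higher and lower members are therefore not like for like. In the longer window 4 of the 19 higher (21.1%), 2 of the 8 lower (25.0%) and 3 of the 43 not called held it, so there the higher members did not exceed the lower ones. The sites of 3 of these 4 and the CACNA1A site deep in the gene are printed because their genes were higher in REST KO than in intact dox cells, and the SCN2A and KCNAB2 sites because theirs were lower. They were chosen after the values were seen. Capitals mark the element, each site runs 5′ to 3′ on its own strand, and a match is not evidence of binding.
CACNA1B, chr9:140773238-140773262, minus strand, intron: gccgtCAGCACCGCGGACAGcgcct
CACNA1B, chr9:140779187-140779211, minus strand, intron: acactCAGCACCATGGACAGcgccc
KCNH4, chr17:40332300-40332324, minus strand, intron: aggttCAGCACCTTGGACAGccaca
KCNK12, chr2:47798602-47798626, plus strand, 497 bases upstream of the start: ggcgtCAGCACCGCGGACAGcgcat
CACNA1A, chr19:13552874-13552898, minus strand, intron: ggtttCAGCACCCTGGACAGctccc
SCN2A, chr2:166094991-166095015, plus strand, intron: gttctCAGCACCATGGACAGcgtta
KCNAB2, chr1:6112663-6112687, plus strand, intron: gaattCAGCACCTCGGACAGcgctc

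The fourth gene with a site near its start was KCNN4, where it lay outside the gene and its 5000 bases upstream. CACNA1B, whose 2 sites lay 1009 and 6958 bases into the gene, was at 1.33, 0.76 and 1.22 in intact dox and 3.41, 3.50 and 2.88 in REST KO dox cells (2.16 ± 0.20; adjusted p = 1.88e-07), without overlap. KCNAB2, a beta subunit of delayed rectifiers, went the other way, at 9.39, 8.45 and 9.27 against 7.76, 7.49 and 7.49. KCNC1, KCNK3 and CACNG7 held no match to these letters in either window. A looser form of the element (such as CAGGACC in place of CAGCACC) was matched by CACNG7 in both windows and by KCNC1 and KCNK3 in neither. Near the start, 1.94% of the protein-coding genes held the looser form. So did 6 of the 19 members higher in REST KO dox cells (31.6%), 0 of the 8 lower and 4 of the 43 not called (9.3%). KCNN4 was among these 6 as well, with the same limit. In the 300 bases around the start (RefSeq, GRCh38.p14), 15.2% of 99 member promoters and 22.5% of 14429 held TGGGAA, the core bound by the Notch partner RBPJ, on either strand; of the shared risers KCNA5 and KCNMB1 held it and KCNS3 did not.

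H82 STING KO cells had their own baseline, and with doxycycline none of their libraries had less TMEM173 RNA than the intact ones. RNA does not show whether protein was lost, for which the study has the immunoblots named above. Without doxycycline, 4 members were higher and 11 lower in STING KO than in intact cells (6.64% and 7.72% of all genes), and the neuroendocrine mean was 4.49 against 6.00. KCNC1 was at 4.22, 3.69 and 4.21 against 7.14, 6.68 and 6.85, and KCNK3 at 0.19, 0.21 and 0.15 against 1.76, 2.27 and 2.31, so both were already low before doxycycline. With doxycycline, 7 were higher and 3 lower than in intact cells (7.72% and 8.75%), and within STING KO cells doxycycline raised 18 and lowered 10 (12.2% and 8.07%). KCNMB1, at 0.29, 0.65 and 0.12 on 2 to 13 reads, did not reach the 2.25 to 2.82 of intact cells (interaction -2.23 ± 0.21; adjusted p = 3.21e-06). The doxycycline response differed from the intact one for 12 members, 10 more positive and 2 more negative (3.91% and 3.21%), among them KCNC1 (2.93 ± 0.48).

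TAS1440 in COR-L88 lowered more channels than it raised. Of 64 members tested, 14 rose and 22 fell, against 15.3% and 7.46% of all genes, and the median was -0.42 over the members tested and 0.01 over all genes. CACNA1A went from 10.56, 10.88 and 10.43 to 1.30, 1.05 and 0.90 (-9.54 ± 0.44; adjusted p = 2.42e-09), that is from 3815 to 4510 reads to 3 in each library. SCN2A went from 5.26, 5.29 and 5.16 to 0.86, 1.73 and 1.55, and SCN3A from 14.45, 14.76 and 14.31 to 10.83, 12.05 and 12.24. Among potassium channels KCNC1 went from 7.84, 7.85 and 7.45 to 3.55, 4.89 and 4.40, KCNH6 from 373 to 691 reads to 2 to 5, and KCNK3 from 599 to 1215 reads to 6 to 24. None of these groups overlapped.

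The risers in COR-L88 included calcium gamma and two-pore potassium subunits. All 3 gamma genes tested rose, while of 8 two-pore genes 4 rose and 2 fell. Of 20 voltage-gated potassium alpha genes, 2 rose and 11 fell. With DMSO, CACNG1 and CACNG5 were under the filter level of 1 in each library, as were KCNK2, KCNK5 and KCNK6. For these genes only a rise could be called. CACNG4 went from 4.66, 3.80 and 3.60 to 7.99, 8.29 and 8.27 (4.16 ± 0.36; adjusted p = 5.21e-07), the opposite of its fall in H69. KCNJ8 rose by 3.55, and the 4 two-pore genes were KCNK1, KCNK2, KCNK5 and KCNK6; KCNK1 went from 1.03, 0.96 and 1.23 to 3.80, 3.63 and 3.78. CACNA2D1 rose by 2.38, where it had fallen with N1ICD in the 3 other lines. KCNE4 (0.03, 0 and 0.04 to 1.34, 2.76 and 3.24) and KCNS3 rose as with N1ICD, while KCNA5 and KCNMB1 were listed at 0 in all 15 COR-L88 libraries.

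With the GSI given alongside TAS1440, some of these channels were nearer to DMSO and others were not. Between TAS1440 and TAS1440 with GSI, 8 members were higher and 8 lower with TAS1440 alone (10.4% and 4.32% of all genes), and between TAS1440 with GSI and DMSO 11 were higher and 20 lower (5.62% and 3.40%). With the GSI, CACNA1A was at 4.76, 5.18 and 4.62 and SCN2A at 4.08, 4.01 and 3.42, both between TAS1440 alone and DMSO. SCN3A reached 14.04, 13.77 and 13.70, which differed from DMSO by -0.67 (adjusted p = 0.113). KCNIP3 and KCNK9 went past DMSO, to 6.43, 6.67 and 6.53 against 5.51 to 5.61 and to 2.67, 2.82 and 2.80 against 1.76 to 1.97, with no overlap but by 0.98 and 0.93, under the size needed for a call. KCNC1 (3.49, 3.76 and 2.81), KCNH6 (0.02, 0.09 and 0.03) and KCNK3 (0.47, 0.21 and 0.35) were not called between TAS1440 with and without GSI and remained below DMSO. REST RNA was 6.19 to 6.32 with the GSI, 6.25 to 6.57 with TAS1440 and 3.52 to 3.57 with DMSO. Of the risers, CACNG4 (7.70, 7.21 and 7.14) and KCNK5 (3.90, 3.26 and 3.80) remained above DMSO, and KCNJ8 (3.02, 2.56 and 1.95) and KCNK1 (2.56, 2.05 and 2.15) lay between the TAS1440 and DMSO libraries.

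**Figure D4:**
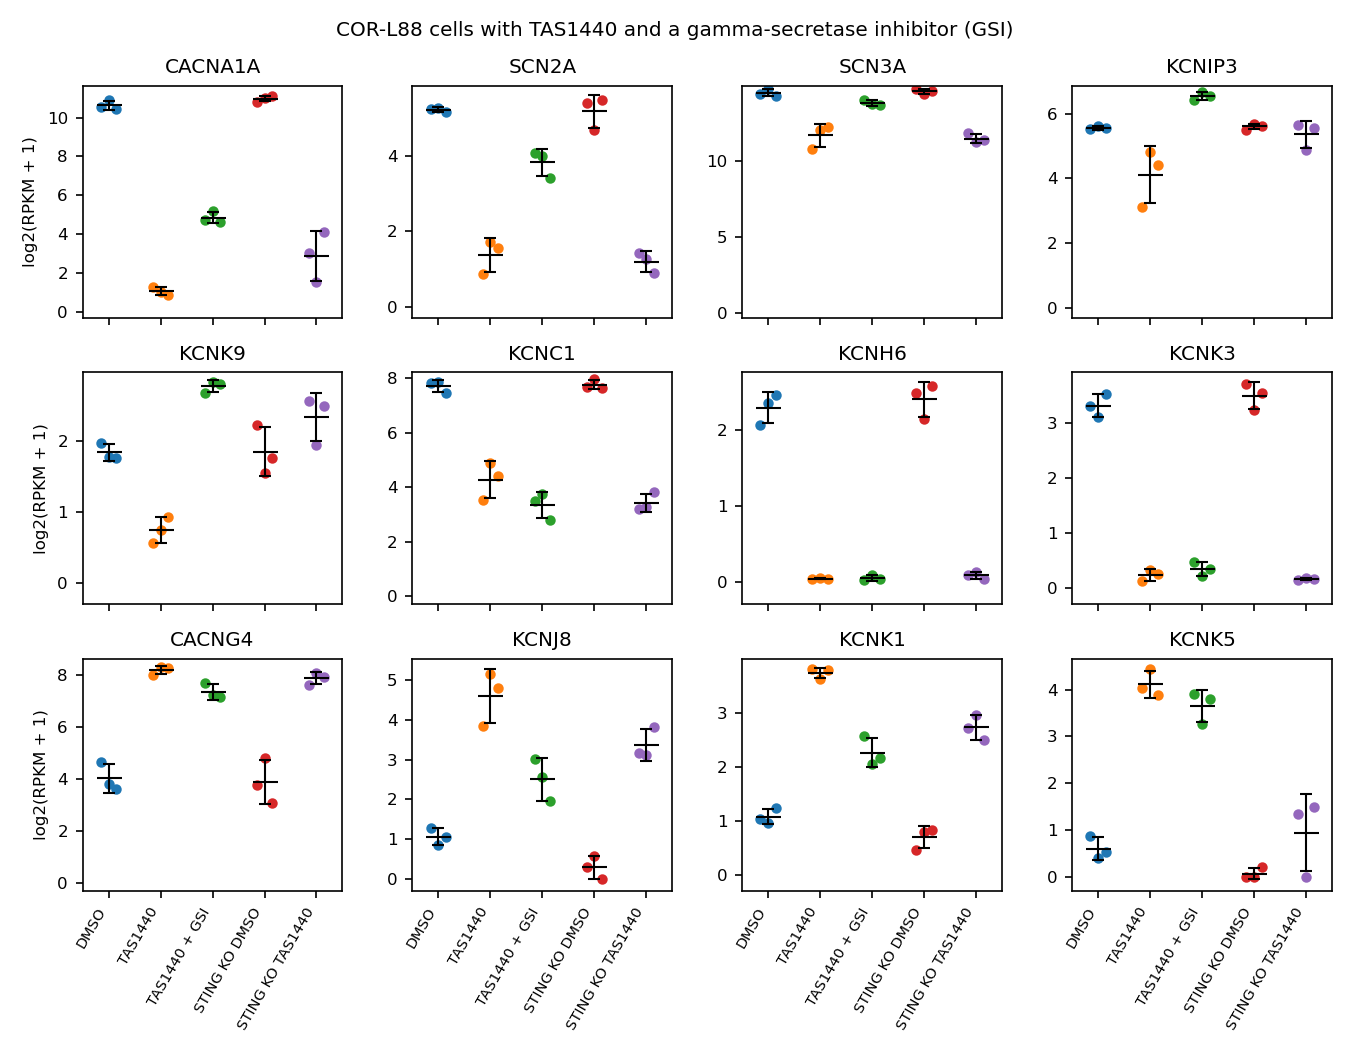
Log2(RPKM + 1) of 12 channel genes in COR-L88 cells with DMSO, TAS1440 or TAS1440 with a GSI, and in STING KO cells with DMSO or TAS1440; points are libraries, and bars the mean and SD of 3. CACNA1A, SCN2A and SCN3A are nearer to DMSO when the GSI is given with TAS1440, whereas KCNC1, KCNH6 and KCNK3 are well below DMSO in both.

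STING KO COR-L88 cells responded to TAS1440 with 12 members higher and 20 lower (10.2% and 5.79% of all genes). Their response differed from the intact one for 8 members, 2 more positive and 6 more negative (0.921% and 3.31%). KCNK9, an acid-sensitive leak channel that fell in intact cells, was in STING KO cells at 2.22, 1.55 and 1.76 with DMSO and 2.55, 1.94 and 2.49 with TAS1440 (interaction 1.58 ± 0.26; adjusted p = 0.0045). KCNK5, at 4.03, 4.44 and 3.88 with TAS1440 in intact cells, was at 1.34, 0 and 1.49 in STING KO cells, on at most 14 reads. With DMSO 2 members were higher and 2 lower in STING KO (0.457% and 1.01%). KCNAB2 was listed at 0 in all 6 STING KO libraries, against 32 to 46 reads with DMSO in intact cells, at least 11.6-fold lower by the 3-read floor, and here too the edit and a clone cannot be told apart. With TAS1440, 4 were higher and 9 lower in STING KO than in intact cells (1.48% and 5.06%).

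In KP1, few channel genes passed the filter: 19 of 131 members, where 8260 of the 18501 genes of the table did. Of the 19, 18 were at a mean of at least 1 with DMSO. A fall was therefore the direction in which most could be called. With TAS1440, 18 of the 19 fell and 0 rose (9.70% and 9.09% of all genes). A lower filter of 0.3, chosen after the data were seen, let in more members, such as Scn8a and Kcnh4. It gave 19 calls, a smaller share of the members tested, and the share of all genes under that filter is not given here. Kcnh3, a brain ELK-type channel, went from 2.97, 2.92 and 2.59 to 0.02, 0.13 and 0.32 (-2.67 ± 0.22; adjusted p = 2.3e-05). Cacnb2, a calcium channel beta subunit, went from 5.49, 5.44 and 4.92 to 3.12, 2.96 and 3.59 (-2.06 ± 0.25; adjusted p = 0.0002). The groups did not overlap for either. Kcnf1 was the exception, at 0.60, 0.43 and 0.97 against 0.38, 2.44 and 1.35. Of the 11 members that fell in KP1 and were tested in COR-L88, KCNC1, KCNH2, KCNH3, KCNH6 and KCNIP3 fell there too. Others went the opposite way: Cacng4, Cacna2d1 and Kcnk1 fell by 1.12, 1.15 and 1.56 on the log2 scale in KP1 and rose in COR-L88. In COR-L88, 34.4% of all members tested and 7.46% of all genes fell. Among all genes that fell in KP1, the share that also fell in COR-L88 is not given here.

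With the GSI added, 11 members were lower with TAS1440 alone and 0 higher (8.00% and 8.50%), and 4 stayed below DMSO (0.751%). Kcnk1, a weakly rectifying two-pore channel, was at 0.22, 0.29 and 0.96 with TAS1440 alone. With the GSI it was at 1.98, 1.83 and 1.94, near the 2.00 to 2.13 of DMSO. Cacna1h, a T-type channel that opens near rest, remained below DMSO, at 1.62, 1.59 and 1.60 with DMSO, 0.17, 0.04 and 0.11 with TAS1440 and 0.28, 0.38 and 0.15 with the GSI. The neuroendocrine mean was 4.40 with DMSO, 1.36 with TAS1440 and 4.35 with the GSI, and Rest RNA was 1.65 to 2.48 with TAS1440, 0.72 to 1.02 with the GSI and at most 0.03 with DMSO.

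**Figure D5:**
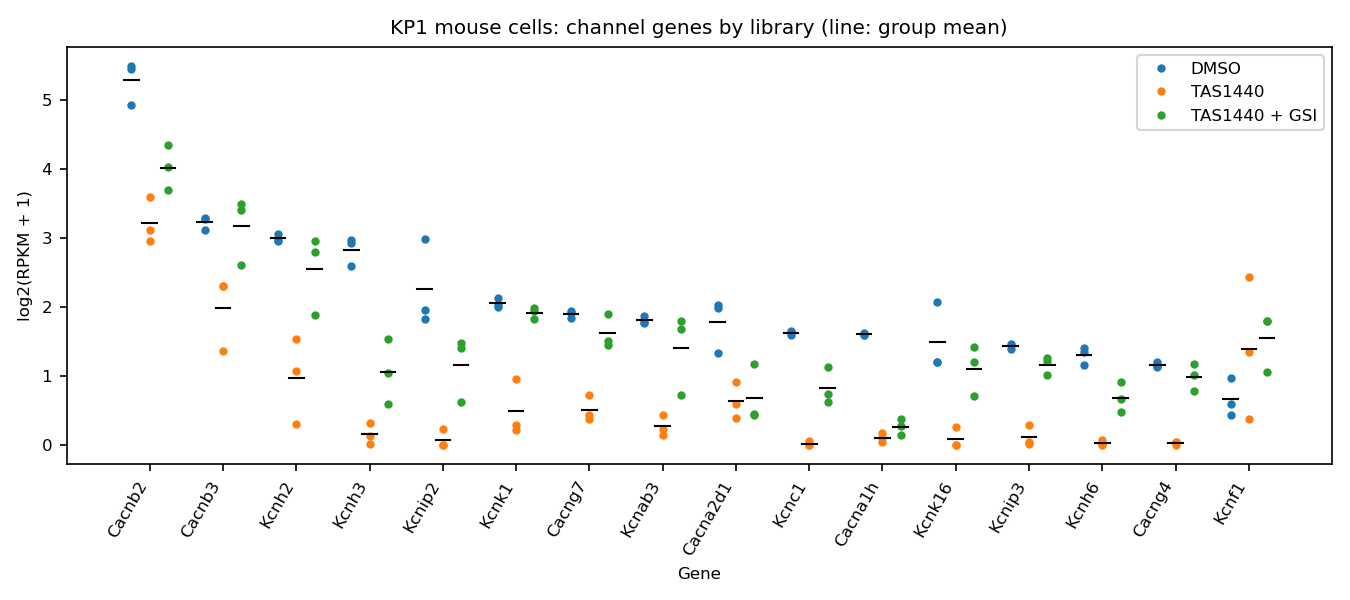
Log2(RPKM + 1) of channel genes in KP1 cells with DMSO, TAS1440 or TAS1440 with a GSI; 16 of the genes tested are shown, points are libraries and lines group means. Kcnk1 falls from 2.00 to 2.13 to at most 0.96 and is at 1.83 to 1.98 with the GSI, and Cacna1h is at or under 0.38 with TAS1440, with or without the GSI.

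Genes that work with these channels were read from a list of 29 (HCN pacemaker channels, the sodium leak channel and its partners, FGF and DPP modulators, ankyrins, RGK and STAC regulators and RIM scaffolds). In H69 with N1ICD, 3 of 17 tested rose and 11 fell (21.4% and 20.4% of all genes), in H82 5 of 19 rose and 4 fell (14.7% and 12.4%), and in H524 3 of 20 rose and 3 fell (11.4% and 7.19%). With TAS1440, 2 of 15 rose and 7 fell in COR-L88 (15.3% and 7.46%). In KP1, where 9.09% and 9.70% of all genes did, 0 of 6 rose and 5 fell (Amigo1, Ank2, Hcn2, Hcn3 and Hcn4). STAC2, a calcium channel adaptor, rose with N1ICD in all 3 lines. DPP10, an auxiliary subunit of transient outward channels, fell in all 3 and with TAS1440 in COR-L88. GEM, an inhibitor of calcium channels, rose in H82, H524 and COR-L88 and fell in H69.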

How the data were processed

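RNA-seq had been run on 69 libraries of 5 SCLC lines. Per the labels and the study's methods, stranded polyA libraries were sequenced as paired ends, and the authors trimmed reads with Cutadapt, aligned them with STAR, quantified genes with RSEM, normalised with TMM in edgeR and took RPKM. Their human build was hg19; mm10 is also listed, and versions, annotation, gene lengths and use of strand in counting are not given in the sources used here. The deposited values are log2(RPKM + 1), in 1 table for the human lines and 1 for KP1. Fold changes are differences on this log2 scale. Counts were not used here, so depth is known as relative library size and from the spacing of low values (tolerance 0.08 of a read); such reads describe depth and were not tested.

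Each line had its own fit in limma (version 3.58.1, under R 4.3.3), which gave every group a mean and included a trend in the variance and no covariate. The comparison of N1ICD responses used H82, H524 and H69 together. Genes needed a log2 value of 1 in 3 libraries of the fit, and the Benjamini-Hochberg adjustment took in every gene that passed. On simulated data the H82, H524, H69, COR-L88 and KP1 fits recovered 87%, 70%, 96%, 98% and 90% of changes of 1.5 on the log2 scale. Named genes were, by family, members called with the largest non-overlapping differences (up to 4 per direction), those called alike or oppositely in different lines, those with called differences of response, and the members highest in untreated cells; others were added after their values were seen. The members and lists were chosen with earlier results of these data known. Library numbers from the titles name libraries only. The alternatives were no filter, no trend, a pseudocount of 0.1, median centring, quantile normalisation, only the groups compared, leaving out each library and, added after seeing the data, a minimum of 10 estimated reads and a filter of 0.3 in KP1. Sites were searched in GRCh37, and promoters came from RefSeq (GRCh38.p14). Tables were made with pandas 2.3.3 and plots with matplotlib 3.10.9. Some genes are not reported here, though counts over all members include them.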

Additional observations from a re-analysis of the deposited data

Results flagged for a closer look

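Responses that differed between groups by a test of the difference itself were marked, and their sizes are differences of log2 changes. Between REST KO and intact H82 cells the doxycycline response differed for 25 members, from 5.49 for SCN3A, on 2 to 74 reads with doxycycline, to -3.34 for CACNA2D4, an alpha2delta subunit of the retina. Between STING KO and intact H82 cells it differed for 12, from 2.93 for KCNC1 to -2.23 for KCNMB1.

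In H524 the response to N1ICD differed from that to REST for 26 members, from 5.79 for KCNE4 to -3.29 for CACNA1F. In COR-L88 the TAS1440 response of STING KO cells differed for 8 members, with KCNK9 at 1.58 and KCNK5 at -2.64.

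The N1ICD response of H524 differed from that of H82 for 34 members, from 3.80 for KCNE3 to -4.97 for CACNG4. For H69 against H82 there were 50, from 6.03 for KCNJ8 to -11.06 for CACNA1A. For H69 against H524 there were 60, from 7.30 for SCN3A to -8.53 for KCNMB2, and the H69 no dox libraries behind the last 2 comparisons stood apart from parental cells, as given above.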

How the results depend on the processing

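No paired analysis was possible because no groups compared share a library number. Of the alternative counts of members called, 444 were within 1.5 times the reported count and 21 were not. Fitting only the groups compared gave 5 in place of 8 for REST KO against intact H82 without doxycycline, 7 in place of 11 for H82 no dox against parental, 8 in place of 22 for H524 N1ICD no dox against parental, 6 in place of 13 for COR-L88 STING KO against intact with TAS1440 and 2 in place of 4 with DMSO. A pseudocount of 0.1 gave 21 in place of 10 for STING KO against intact H82 with doxycycline, 15 in place of 9 for H69 no dox against parental, 7 in place of 4 for COR-L88 STING KO against intact with DMSO, 3 in place of 8 for the difference of COR-L88 TAS1440 responses and 2 in place of 4 for KP1 with TAS1440 and GSI against DMSO. Leaving out 1 library gave 6 to 15 for the difference of H82 STING KO responses (12; 6 or 7 without library 5, 6, 8 or 59), 3 to 5 for H524 REST (3; 5 without 34 or 37), 3 to 12 for the difference of COR-L88 TAS1440 responses (8; 3 to 5 without 11, 42, 43 or 45) and 5 to 12 for KP1 TAS1440 with against without GSI (11; 5 without 8). The cause was not tested.

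Of single members, 8161 values kept their direction and call and 622 lost the call. For CACNG4 the REST KO difference of response was 0.19 with a pseudocount of 0.1 in place of -1.76. Centring and quantile normalisation moved the median of all genes by -0.14 and -0.15 for COR-L88 TAS1440 against DMSO. The share of called members that were higher moved from 50.0% to 35.7% (centring) for COR-L88 TAS1440 with against without GSI, from 25.0% to 42.9% (quantile) for the difference of COR-L88 responses, from 30.8% to 44.4% (both) for COR-L88 STING KO against intact with TAS1440, from 46.9% to 36.1% (quantile) for H524 N1ICD and from 65.0% to 55.0% (quantile) for H82 REST KO. Members with few reads, such as KCNE2, CACNG7 and SCN3A in H69, were limited by depth.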

Other observations

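CACNA2D4 and CACNA1F, a subunit and a pore of the photoreceptor calcium channel, moved together in STING KO H82 cells before doxycycline: CACNA2D4 was at 7.58, 6.99 and 6.54 and higher than in intact no dox cells by 2.76, and CACNA1F was higher by 2.39. In untreated COR-L88, KCNAB2 was at 5.09, 4.75 and 4.31, and in every other untreated line its mean was above 8.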
